A study of Rattus norvegicus with 8 samples.

Results

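The genes described here encode the carriers that move transmitters and amino acids across the membranes of cells, synaptic vesicles and lysosomes in dorsal root ganglia, where the cell bodies of sensory neurons lie. They were taken by symbol from the deposited array table, as all genes whose name starts with Slc1a, Slc3a, Slc6a, Slc7a, Slc17a, Slc18a, Slc32a, Slc36a or Slc38a, with 1 gene left out, and each gene was read at its probe with the highest mean intensity. This gave 48 genes, measured by 57 probes, among 10745 named genes with a tested probe. All 48 had a value on every array. Slc7a6os entered by its symbol alone, since it is the gene on the opposite strand of Slc7a6 and encodes no carrier, and 47 genes remained without it.

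The ganglia came from Sprague Dawley rats 7 days after surgery, with 4 samples in each of 2 groups and each sample pooled from 2 animals. The ligation group had a tied spinal nerve on the side sampled, known as the Chung model of nerve injury pain, which injures the axons of the sensory neurons. The control group is called contralateral in the sample titles and sham-operated in the descriptions, so side and operation cannot be told apart. The sources used here do not give the animals' age and sex or the spinal level of the ganglia. On each array the amplified RNA of 1 sample, labelled with Cy5, was hybridised beside 1 Cy3-labelled pool of control ganglia, with no dye swap, so all groups share that pool and a dye effect is the same on all arrays. Values below are log2 ratios of sample over pool, in which 0 means the level of the pool, and a change is the mean of the 4 ligation arrays minus the mean of the 4 control arrays. The p-values are from limma, adjusted by Benjamini-Hochberg over 22379 probes, and a gene passed the test at an adjusted p under 0.05. Intensities were printed with 2 decimals, so the log2 ratio of a dim probe moves in steps, and the range that this rounding alone allows is given for such genes. Intensities of different probes are not levels that can be set against each other, and they are given only to show how dim a probe was.

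Vesicular carriers load a transmitter into synaptic vesicles with the energy of a proton gradient, and carriers of the plasma membrane take transmitters back up with the sodium gradient. Sensory neurons of the ganglion release glutamate, loaded by the vesicular glutamate carriers, while satellite glia around each cell body take up glutamate and GABA. A separate set of carriers feeds amino acids to the cell, of which several consist of a heavy chain that brings the carrier to the membrane and a light chain that forms the pore. Carriers on the lysosome pass amino acids back to the cytosol and take part in the sensing of amino acids by the kinase mTORC1.

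Of the 48 genes, 13 rose after ligation, 17 fell and 18 did not pass the test, and without Slc7a6os 12 rose and 17 fell. Over all 10745 genes the shares were 30.2% higher and 35.9% lower, so that 66.1% passed in either direction, against 62.5% of the transporter genes. Counted over probes, 58.6% of all 22379 passed. The median change was -0.15 among the 48 genes and -0.05 over all genes, and the median size of a change, without its sign, was 0.38 against 0.29. With 0.05 added to both intensities the medians were -0.05 and -0.03, and with all probes of a gene averaged -0.09 and -0.05. At least a 2-fold rise was found for 4 of the 48 genes, where 6.47% of all genes had one, and at least a 2-fold fall for 2 of them, where 4.7% had one. All 4 ligation arrays lay above all 4 control arrays for 12 genes (28.7% of all genes) and below them for 17 (33.6% of all genes), and the arrays overlapped for 19. The family therefore moved in both directions, at shares near those of the whole array. Among 189 other Slc genes, 39 rose and 80 fell, with a median change of -0.13.

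**Figure D1:**
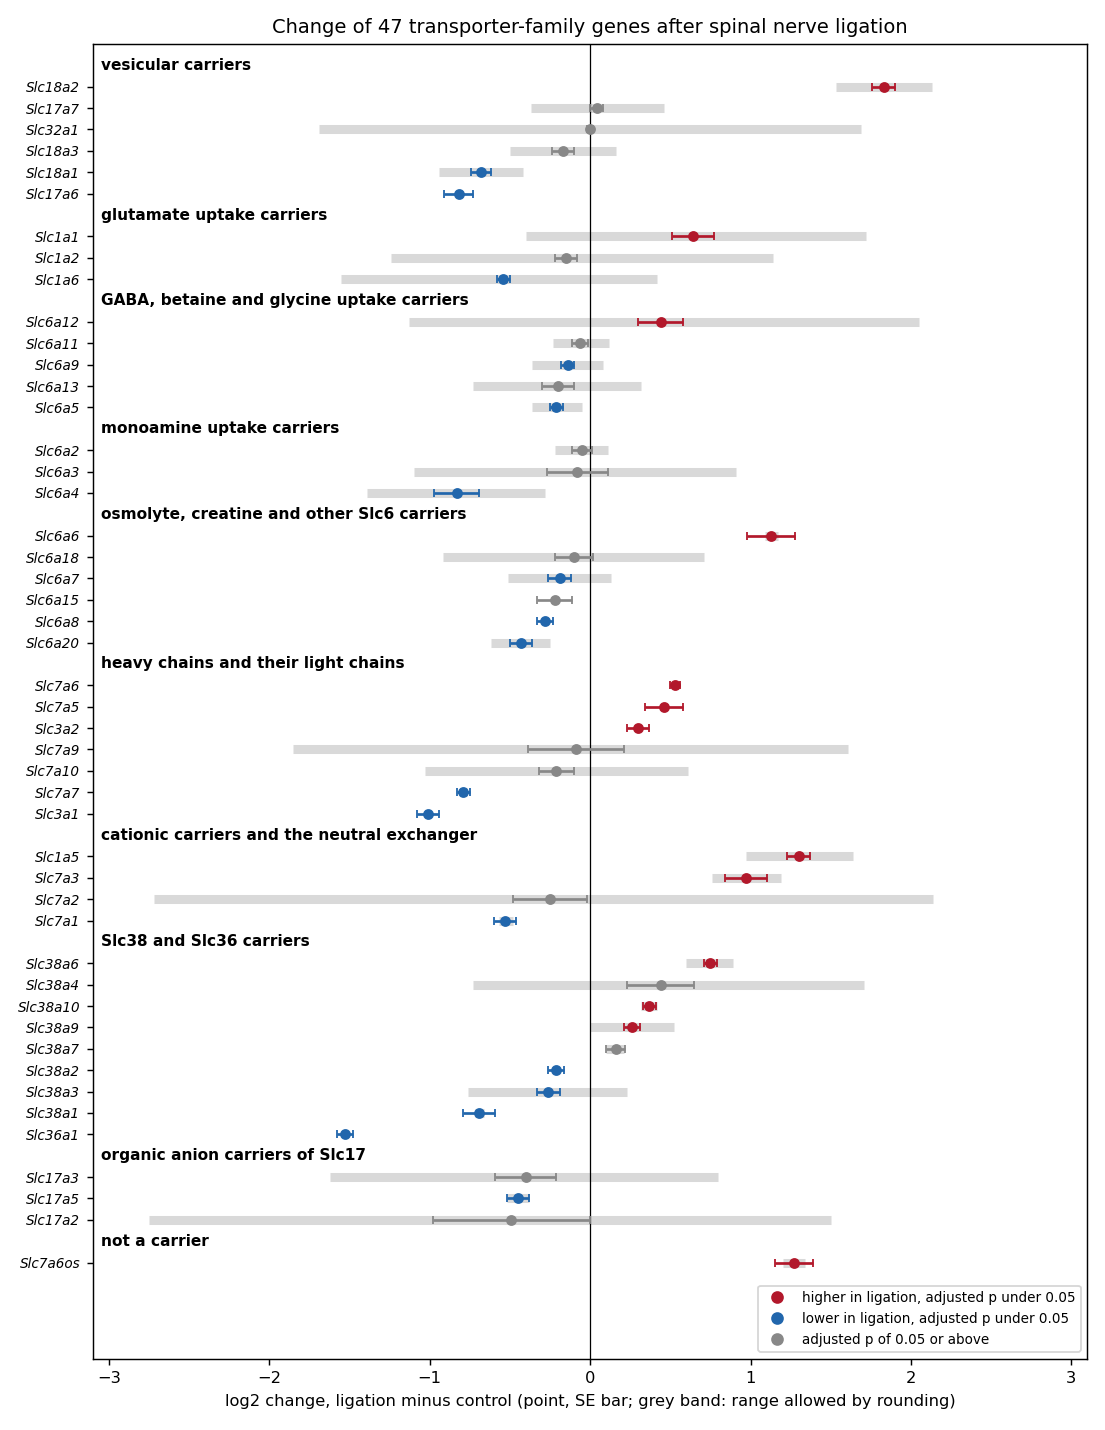
The change of 47 of the 48 genes (log2, ligation minus control), grouped by role, with the standard error as a bar and the range allowed by rounding as a grey band. Red points rose, blue points fell and grey points had an adjusted p of 0.05 or above. The 13 rises reach 1.83 in Slc18a2 and the 17 falls reach -1.53 in Slc36a1.

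Of the 30 genes that passed, 24 had a change whose rounding range left out 0, which were 11 rises and 13 falls. The other 6 were Slc6a12, Slc6a9, Slc38a3, Slc1a1, Slc1a6 and Slc6a7, all dim. In 19 genes the mean sample intensity was under 0.1 in both groups, on a scale whose medians over all spots were 0.17 to 0.22. Of the 18 genes above the median probe intensity 15 passed (83.3%, against 77.2% of all such genes), and of the 30 at or below it 15 passed (50%, against 47.2%). The mean of the control arrays differed from the pool for 0 of the 48 genes in limma, where 0.949% of all genes differed. At an unadjusted p under 0.05 it differed for 7 of them. Their mean control ratios ran from -0.54 to 0.29.

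**Figure D2:**
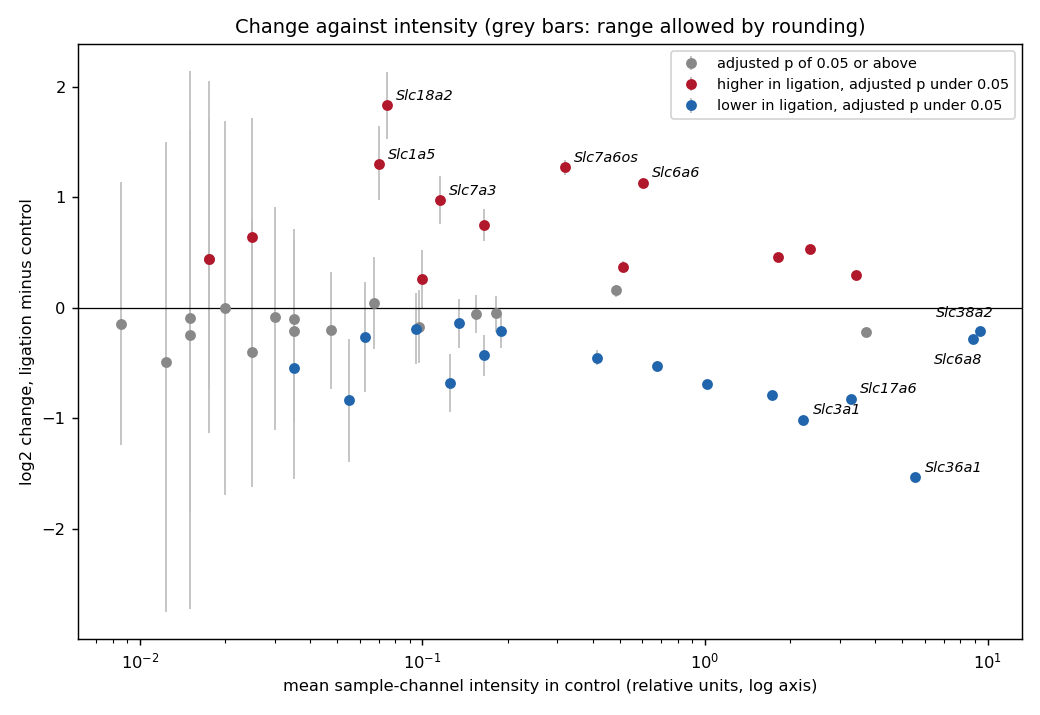
The change of the same 47 genes (log2, ligation minus control) against its mean sample-channel intensity in control (relative units, log axis), with the range allowed by rounding as grey bars. The grey bars are long below an intensity of 0.1 and hardly visible above 1, and the largest fall, Slc36a1, is in a bright probe while the largest rise, Slc18a2, is in a dim one. Slc6a12 and Slc38a4 share a point, and only the red one is seen.

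The cell types of the ganglion moved with the groups as well. Of 12 measured sensory neuron markers 10 fell and 2 did not pass, with a median change of -1.49, and their summed level went from 88.0 to 96.6 in control to 35.4 to 39.8 in ligation. The neuronal genes Snap25 and Nefh and the sensory neuron channel Trpv1 were bright in control, with mean intensities of 21.1, 15.5 and 4.73. Isl1, a transcription factor of sensory neurons, and Calca, which encodes the peptide CGRP, were dim there, at 0.185 and 0.055. In 12 of the 16 channels bright spots piled up at 1 intensity per channel, between 17.77 and 30.09. The control mean of Snap25 lies in that span, while 0 of the 48 transporter genes reached it. Whether this limited the levels of the brightest markers was not tested. Of 13 macrophage markers 12 rose, with a median change of 2.51 (summed level 14.9 to 16.5 in control, 73.7 to 82.8 in ligation), and all 6 fibroblast markers rose (18.8 to 25.2, then 47.2 to 56.9). Of 8 T cell markers 7 rose (0.92 to 0.976, then 1.46 to 1.67), and of 8 endothelial markers 4 rose and 4 did not pass (8.87 to 10.7, then 8.89 to 11.2). Among 9 satellite glia markers 4 rose and 2 fell (37.4 to 39.0, then 38.4 to 41.4), and among 6 Schwann cell and myelin markers 1 rose and 3 fell (42.9 to 74.1, then 46.2 to 54.4). Of 4 sympathetic neuron markers 1 fell and the other 3 had intensities under 0.05 in control. Of 5 markers of spinal cord glia 2 fell, from a summed level of 0.209 to 0.289, to 0.168 to 0.174. In 4 of these 5 the mean intensity over all arrays was under 0.05, and the rounding range of the smaller fall, -0.98 to 0.22, held 0. The larger fall was in Aqp4, from a mean intensity of 0.123 in control to 0.0375 in ligation. Of 7 skeletal muscle markers 1 rose and 1 fell (0.794 to 1.59, then 0.778 to 1.05). All 7 lay below the pool in both groups, with mean control ratios of -4.48 to -1.31, so the pool gave more muscle signal than the samples of either group. The erythrocyte markers Hbb and Alas2 had adjusted p of 0.979 and 0.69 (13.6 to 20.8, then 15.6 to 17.1). In whole ganglia, fewer cells of a type and less RNA per cell cannot be told apart, and the part these shifts had in the changes of the transporter genes was not tested.

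Among the vesicular carriers, the monoamine carrier Slc18a2 (VMAT2, NM_013031 in the table) had the largest rise of all 48 genes, while Slc17a6 (VGLUT2), which loads glutamate, and Slc18a1 (VMAT1), the other vesicular monoamine carrier, fell. Slc18a2 had log2 ratios of 0.00, 0.00, -0.19 and -0.19 on control arrays 1 to 4, and 1.68, 1.81, 1.63 and 1.81 on ligation arrays 1 to 4. The ligation arrays were close together and far above all control arrays. The rise was 1.83 ± 0.07 (log2, SE, n = 4 per group; 3.55-fold, adjusted p = 1.1e-06), and rounding allowed 1.53 to 2.13. The probe went from a mean intensity of 0.075 in control to 0.297 in ligation.

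The glutamate carrier Slc17a6 (AF271235) had log2 ratios of 0.08, 0.13, -0.09 and 0.20 in control and -0.55, -0.83, -0.70 and -0.89 in ligation. Every ligation array was below every control array, and the fall was 1.77-fold (log2 change -0.82 ± 0.09, SE, adjusted p = 0.000149). Its probe was bright, at 3.29 in control and 2.31 in ligation, and rounding allowed -0.83 to -0.81. Slc18a1 (NM_013152) stood at 0.00, 0.00, 0.00 and -0.13 in control and at -0.58, -0.83, -0.78 and -0.65 in ligation. Here too the groups were apart, with a change of -0.68 ± 0.06 (adjusted p = 5.62e-05) and a rounding range of -0.94 to -0.42. Thus 1 vesicular monoamine carrier was higher and the other lower in the same samples, and both probes were dim.

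The 3 other vesicular carriers did not pass the test. Slc17a7 (VGLUT1), the second glutamate carrier, had ratios of 0.00 on all control arrays and 0.00, 0.17, 0.00 and 0.00 in ligation (change 0.04, adjusted p = 0.411). Slc18a3, the vesicular acetylcholine carrier, was at 0.00 on all control arrays and at -0.19, -0.13, -0.36 and 0.00 in ligation (change -0.17, adjusted p = 0.0768). Slc32a1, which loads GABA and glycine, was at 0.00 on all 8 arrays. Mean control intensities of these probes were 0.0675, 0.0975 and 0.02, and for Slc32a1 rounding alone allowed changes of -1.69 to 1.69, so a change of that size could not be seen. Slc17a8, the remaining vesicular glutamate carrier, is not analysed here.

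**Figure D3:**
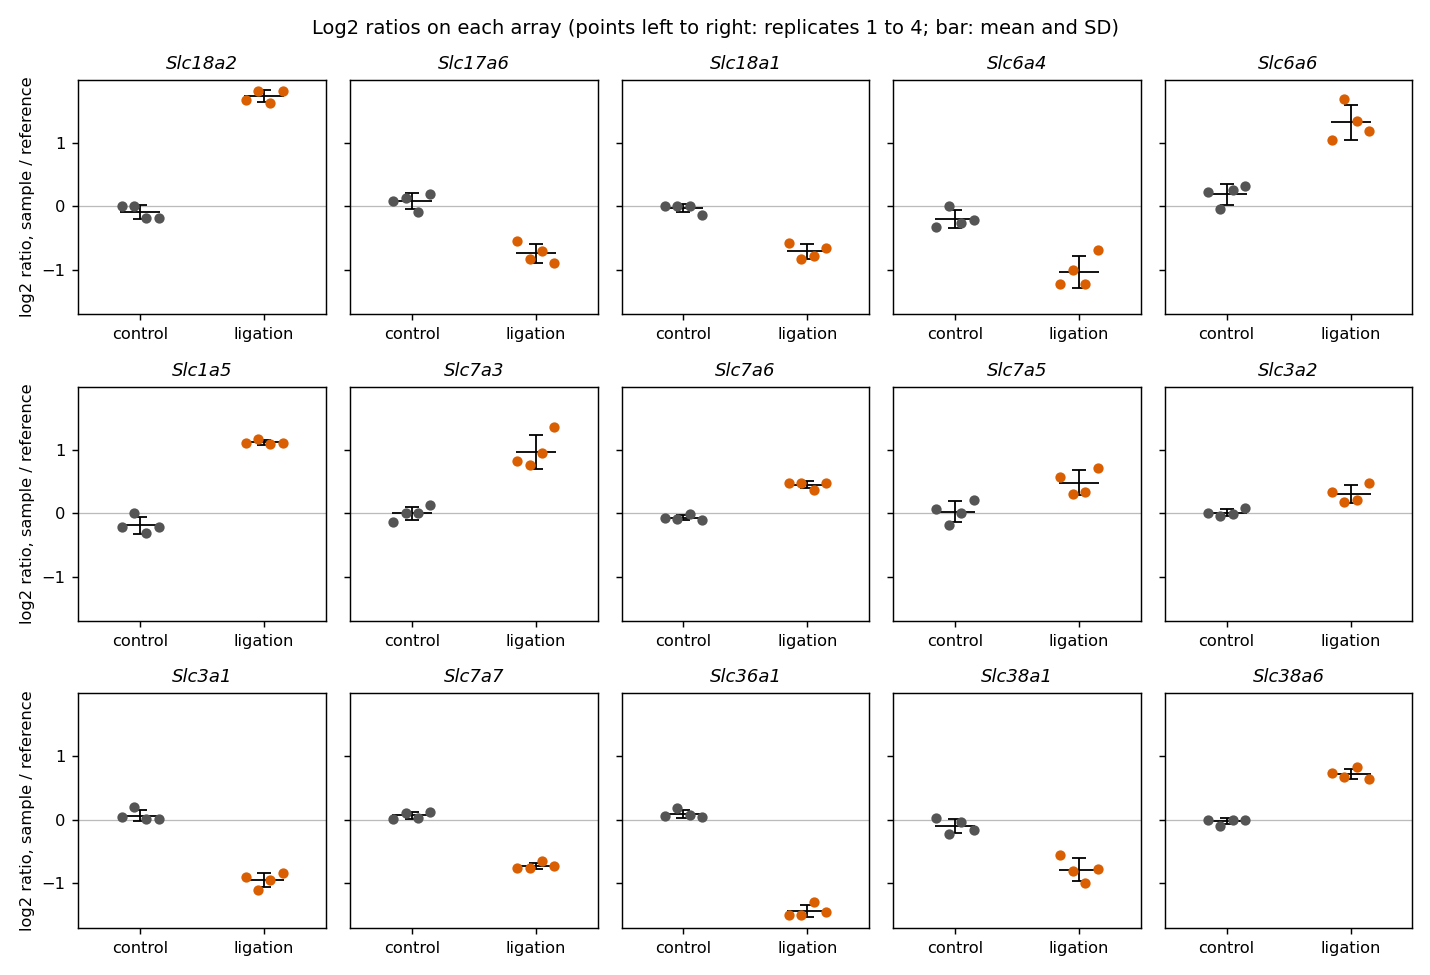
Log2 ratio of sample over pool on each array for 15 of the genes, with replicates 1 to 4 from left to right in each group and the mean and SD as bars. In all 15 panels the 4 ligation points lie apart from the 4 control points. They are above them for Slc18a2, Slc6a6, Slc1a5, Slc7a3, Slc7a6, Slc7a5, Slc3a2 and Slc38a6, and below them for the others.

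Promoter sequence of 35 of the 48 genes was found in RefSeq tables of the GRCr8 build, as 37 windows from 250 bases before to 50 bases after a gene's start. Of these genes 9 rose, 14 fell and 12 did not pass. The windows were searched, with the array results known, for a few short motifs of factors that act on such genes. A match is a run of letters and was not tested as a binding site. The cAMP response element TGACGTCA, searched on both strands, is held by 1.83% of 33469 rat promoter windows. It was found in 2 of the 35 genes, Slc18a2 and Slc38a6, which both rose. In Slc18a2 it lies 52 to 45 bases before the start and in Slc38a6 136 to 129 bases before it. The windows are chr1:268399771-268400070 (plus strand) for Slc18a2 and chr6:97723276-97723575 (plus strand) for Slc38a6, and they are shown because they hold the largest vesicular rise and the largest Slc38 rise, with the element in capitals.
Slc18a2 promoter: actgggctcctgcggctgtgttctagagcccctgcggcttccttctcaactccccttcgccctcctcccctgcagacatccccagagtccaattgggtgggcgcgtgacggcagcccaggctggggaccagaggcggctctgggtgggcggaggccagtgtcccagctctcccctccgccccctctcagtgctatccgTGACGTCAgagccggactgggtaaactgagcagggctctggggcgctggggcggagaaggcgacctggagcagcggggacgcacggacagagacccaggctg
Slc38a6 promoter: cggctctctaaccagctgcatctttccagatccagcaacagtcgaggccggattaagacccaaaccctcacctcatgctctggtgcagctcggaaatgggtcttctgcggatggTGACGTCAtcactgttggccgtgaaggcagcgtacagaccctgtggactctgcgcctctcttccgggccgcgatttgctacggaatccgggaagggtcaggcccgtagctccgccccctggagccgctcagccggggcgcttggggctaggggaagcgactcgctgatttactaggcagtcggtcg

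The 3 glutamate uptake carriers analysed here were dim, and their changes could not be told from rounding. Slc1a1 (EAAC1, D63772), the neuronal carrier of glutamate and cysteine, had log2 ratios of 0.00 on all control arrays and 1.0, 0.42, 0.42 and 0.74 in ligation. All ligation arrays were above control, and the rise was 0.64 ± 0.13 (SE, adjusted p = 0.00394), but the mean intensities were 0.025 and 0.0425 and rounding allowed -0.40 to 1.72. Slc1a6, the carrier known from cerebellar Purkinje cells, was at 0.00 on all control arrays and at -0.58, -0.42, -0.58 and -0.58 in ligation (change -0.54 ± 0.04, adjusted p = 2.64e-05). All its ligation arrays lay below control, with a rounding range of -1.55 to 0.42. Slc1a2 (GLT-1), the main glial glutamate carrier of the brain, had ratios of 0.03, 0.00, 0.00 and -0.01 in control and -0.06, 0.01, -0.20 and -0.32 in ligation. The groups overlapped, the change was -0.15 (adjusted p = 0.108), and both mean intensities were under 0.01, at 0.00859 and 0.00855.

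Among the GABA, betaine and glycine carriers the largest fold was 1.36, in Slc6a12. Slc6a9 (GlyT1), the glial glycine carrier, was at 0.00, 0.00, 0.00 and 0.14 in control and at -0.11 on all 4 ligation arrays. The fall of 0.14 on the log2 scale (adjusted p = 0.0103) stood beside a rounding range of -0.36 to 0.08. Slc6a5 (GlyT2), the neuronal glycine carrier, fell by 0.21 (adjusted p = 0.00423, rounding range -0.36 to -0.05), while a second, dimmer probe had a change of 0.10 (adjusted p = 0.781). Both glycine carriers lost the call when all probes of a gene were averaged, at -0.08 (adjusted p = 0.302) for Slc6a9 and -0.06 (adjusted p = 0.755) for Slc6a5. Slc6a12 (BGT1), the carrier of betaine and GABA, was at 0.00 on all control arrays and at 0.58, 0.58, 0.58 and 0.00 in ligation. It was the 1 gene that passed although its groups overlapped (change 0.44, adjusted p = 0.0259, rounding range -1.13 to 2.05). Its call was lost without any 1 of the control arrays, or without ligation array 1, 2 or 3. The GABA carriers Slc6a11 (GAT3) and Slc6a13 (GAT2) did not pass, with changes of -0.06 and -0.20.

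Of the 3 monoamine uptake carriers, Slc6a4 (SERT), which takes up serotonin, fell. Slc6a4 (NM_013034) had log2 ratios of -0.32, 0.00, -0.26 and -0.22 in control and -1.22, -1.0, -1.22 and -0.68 in ligation. The groups lay apart, and the change was -0.83 ± 0.14 (SE, 1.78-fold, adjusted p = 0.00129), with a rounding range of -1.39 to -0.28. After quantile normalization it was -0.22 and did not pass (adjusted p = 0.384). The noradrenaline carrier Slc6a2 (NET) had ratios of 0.00, -0.07, 0.13 and -0.09 in control and -0.08, -0.16, 0.00 and 0.00 in ligation, which overlapped (change -0.05, adjusted p = 0.479). Slc6a3 (DAT), the dopamine carrier, had a change of -0.08 (adjusted p = 0.731). Beside the rise of Slc18a2, no monoamine uptake carrier of the 3 had a change above 0, but the rounding range of the dim Slc6a3 was -1.1 to 0.91.

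The taurine carrier Slc6a6 (TauT, NM_017206) rose 2.19-fold and was the largest rise among the Slc6 genes. Its log2 ratios were 0.22, -0.05, 0.26 and 0.32 in control and 1.05, 1.69, 1.35 and 1.19 in ligation. Every ligation array was above every control array, with the highest on ligation array 2, and the change was 1.13 ± 0.15 (SE, adjusted p = 0.000417). Quantile normalization between arrays lowered it to 0.38 and ended the call (adjusted p = 0.244). The creatine carrier Slc6a8 had ratios of 0.10, 0.04, 0.18 and 0.05 in control and -0.17, -0.09, -0.20 and -0.29 in ligation. This was a fall of 1.22-fold (adjusted p = 0.002) with the groups apart. From the sample channel alone, without the pool, the change of Slc6a8 was -0.10 and did not pass (adjusted p = 0.384). Slc6a20, a carrier of proline and other imino acids now named Slc6a20a, was at 0.00, 0.09, 0.07 and 0.00 in control and at -0.26, -0.47, -0.54 and -0.30 in ligation. It fell 1.35-fold (change -0.43 ± 0.07, adjusted p = 0.000937), and its groups did not overlap. Slc6a7, the proline carrier of the brain, passed at -0.19 (adjusted p = 0.0436), but rounding allowed -0.51 to 0.13 and the call was lost without control array 1 or 2 or without any 1 of the ligation arrays. Slc6a15, a carrier of branched-chain amino acids known from neurons, and Slc6a18, known from the kidney, did not pass, at -0.22 and -0.10. For Slc6a15 ligation arrays 2 and 3 were at -0.41 and -0.37 and array 4 was at 0.05, inside the control range, and without array 4 it passed (change -0.31, adjusted p = 0.0154).

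The subunits of the heteromeric amino acid exchangers moved in both directions. Slc3a2 (CD98 heavy chain) rose, as did its light chains Slc7a5 (LAT1), which brings in large neutral amino acids such as leucine, and Slc7a6 (y+LAT2). Slc3a1 (rBAT), the other heavy chain, known from the cystine carrier of the kidney, fell, and so did Slc7a7 (y+LAT1), which also pairs with Slc3a2. Slc7a6 (g3398407) had log2 ratios of -0.07, -0.09, -0.02 and -0.11 in control and 0.48, 0.48, 0.37 and 0.47 in ligation. The groups were tight and apart, with a rise of 1.44-fold (0.53 ± 0.03, SE, adjusted p = 1.25e-05). Slc7a5 had ratios of 0.06, -0.19, 0.00 and 0.21 in control and 0.57, 0.30, 0.33 and 0.71 in ligation (change 0.46 ± 0.12, adjusted p = 0.0126). Slc3a2 had ratios of 0.00, -0.05, -0.01 and 0.08 in control and 0.34, 0.18, 0.21 and 0.48 in ligation (change 0.30 ± 0.07, adjusted p = 0.00797). In both genes all ligation arrays were above control, and ligation arrays 1 and 4 were higher than 2 and 3. That makes 2 light chains and the heavy chain higher on the same arrays, each by less than 1.5-fold. Quantile normalization ended the calls of Slc7a5 (0.25, adjusted p = 0.38) and Slc3a2 (0.22, adjusted p = 0.118).

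On the falling side, Slc3a1 (g4132717) had log2 ratios of 0.04, 0.20, 0.01 and 0.02 in control and -0.90, -1.10, -0.94 and -0.83 in ligation. It fell 2.01-fold with the groups far apart (change -1.01 ± 0.07, SE, adjusted p = 1.39e-05), and its second probe fell by 0.86 (adjusted p = 9.18e-06). Slc7a7 (NM_031341) had ratios of 0.02, 0.11, 0.03 and 0.12 in control and -0.75, -0.75, -0.65 and -0.73 in ligation. Its arrays varied little and did not overlap (change -0.79 ± 0.04, 1.73-fold, adjusted p = 2.44e-06). The 2 light chains named y+LAT, Slc7a6 and Slc7a7, thus moved in opposite directions in bright probes. Slc7a9, the light chain of Slc3a1 in the kidney, had mean intensities of 0.015 and 0.0199 and did not pass (change -0.09, rounding range -1.85 to 1.61). Slc7a10 (Asc-1), the light chain that carries glycine and D-serine, did not pass at its brightest probe (-0.21, adjusted p = 0.153). A dimmer probe of it passed at -0.58 (adjusted p = 3.72e-07), and averaging both gave -0.40 (adjusted p = 0.000661), while rounding allowed -1.90 to 0.67 for the dimmer probe. The cystine and glutamate exchanger Slc7a11 is not analysed here.

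Slc7a6os, on the opposite strand of Slc7a6, had log2 ratios of -0.17, 0.05, -0.11 and -0.09 in control and 1.34, 0.96, 0.98 and 1.46 in ligation. Its ligation arrays were all far above control, and the rise was 1.27 ± 0.12 (SE, 2.41-fold, adjusted p = 8.84e-05), beside 0.53 for Slc7a6. Its second probe rose by 0.89 (adjusted p = 0.000162). Whether the probes of this overlapping pair each read 1 strand was not tested.

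The cationic amino acid carriers and the neutral exchanger moved apart by gene. Slc1a5 (ASCT2, AJ132846), which exchanges glutamine and other neutral amino acids, had log2 ratios of -0.22, 0.00, -0.32 and -0.22 in control and 1.1, 1.17, 1.08 and 1.1 in ligation. It rose 2.47-fold with nearly equal ligation arrays (change 1.30 ± 0.07, SE, adjusted p = 4.08e-06, rounding range 0.97 to 1.64). Slc7a3 (CAT3, NM_017217), a carrier of arginine and lysine known from the brain, had ratios of -0.14, 0.00, 0.00 and 0.12 in control and 0.82, 0.76, 0.94 and 1.35 in ligation. All ligation arrays were above control, the highest being array 4, and it rose 1.96-fold (adjusted p = 0.000493). Slc7a1 (CAT1), the arginine and lysine carrier of most cells, had ratios of 0.00, 0.04, 0.02 and 0.20 in control and -0.45, -0.57, -0.52 and -0.30 in ligation. It fell 1.44-fold (change -0.53 ± 0.07, adjusted p = 0.000418) and its groups did not overlap. CAT3 was thus higher and CAT1 lower in the same ganglia. Slc7a2 (CAT2) had mean intensities of 0.015 and 0.0125 and did not pass, with -1.0 on ligation array 1 and 0.00 on the other 7 arrays.

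Slc36a1 (PAT1, g3813210), the proton-coupled carrier that moves small amino acids out of the lysosome, had the largest fall of the 48 genes. Its log2 ratios were 0.06, 0.18, 0.08 and 0.04 in control and -1.50, -1.50, -1.30 and -1.45 in ligation. The groups were tight and far apart, and the fall was 2.88-fold (change -1.53 ± 0.05, SE, adjusted p = 8.9e-07), in a probe that went from a mean intensity of 5.56 to 2.45. Its rounding range was narrow, at -1.53 to -1.52.

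The glutamine carriers of the Slc38 family also split. Slc38a1 (SNAT1, AF075704), the glutamine carrier of neurons, had log2 ratios of 0.03, -0.22, -0.03 and -0.16 in control and -0.56, -0.80, -0.99 and -0.78 in ligation. It fell 1.61-fold with the groups apart (change -0.69 ± 0.10, SE, adjusted p = 0.000581), but after quantile normalization it was -0.25 (adjusted p = 0.221). Slc38a2 (SNAT2), the carrier of most cells that rises in amino acid shortage, was at 0.01, 0.17, 0.01 and -0.09 in control and at -0.16, -0.23, -0.17 and -0.20 in ligation. The ligation arrays lay just below the lowest control array, a fall of 1.16-fold (adjusted p = 0.0105) in a bright probe, and its dimmer probe did not pass (-0.12, adjusted p = 0.123). Slc38a3 (SNAT3), the glial carrier that can release glutamine, passed at -0.26 (adjusted p = 0.017), with a rounding range of -0.76 to 0.23. On the rising side, Slc38a6 (g3398749) had ratios of 0.00, -0.09, 0.00 and 0.00 in control and 0.74, 0.68, 0.83 and 0.65 in ligation. It rose 1.68-fold with its groups far apart (change 0.75 ± 0.04, adjusted p = 7.45e-06). Slc38a10 had ratios of 0.03, 0.03, -0.05 and 0.00 in control and 0.30, 0.43, 0.44 and 0.31 in ligation, a rise of 1.29-fold (adjusted p = 0.000176). Its arrays did not overlap, and its dimmer probe had a change of 0.00 with a rounding range of -0.68 to 0.68. Slc38a9, the arginine sensor on the lysosome that signals to mTORC1, was at 0.00, 0.00, 0.00 and 0.14 in control and at 0.32, 0.21, 0.35 and 0.30 in ligation (change 0.26 ± 0.05, adjusted p = 0.00178). Its ligation arrays were all above control, and its rounding range of 0.00 to 0.52 reached down nearly to no change. Under quantile normalization between arrays the change of Slc38a9 was 0.10 (adjusted p = 0.409). Slc38a7, a glutamine carrier of the lysosome, missed the threshold (change 0.16, adjusted p = 0.0544), and passed without control array 4 (0.18, adjusted p = 0.0481) or without ligation array 2 (0.20, adjusted p = 0.0097). It also passed with loess within arrays (0.19, adjusted p = 0.0196), with 0.05 added to both intensities (0.15, adjusted p = 0.0483) and among probes above the median intensity (0.16, adjusted p = 0.0331). Slc38a4 was dim, at 0.0175 and 0.0325, and did not pass (change 0.44, adjusted p = 0.118), though it did without control array 2 (0.62, adjusted p = 0.0149).

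The amino acid response element TGATGNAA, which the factor ATF4 and its partners bind in shortage genes, was found on either strand in 3.98% of the rat promoter windows. Among the 35 genes it was in 2, Slc38a1 (142 to 135 bases before the start) and Slc7a1 (30 to 23 bases before it), and both fell. The windows are chr7:129681352-129681651 (minus strand) for Slc38a1 and chr12:11664238-11664537 (plus strand) for Slc7a1. They are shown, with the element in capitals, because they are the only pair of the 35 genes that holds it.
Slc38a1 promoter: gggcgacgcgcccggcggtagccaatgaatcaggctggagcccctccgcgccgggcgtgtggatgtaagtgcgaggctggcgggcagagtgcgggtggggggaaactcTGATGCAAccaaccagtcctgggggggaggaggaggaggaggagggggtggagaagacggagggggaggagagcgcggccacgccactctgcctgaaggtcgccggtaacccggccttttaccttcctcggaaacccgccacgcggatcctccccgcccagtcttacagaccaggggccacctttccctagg
Slc7a1 promoter: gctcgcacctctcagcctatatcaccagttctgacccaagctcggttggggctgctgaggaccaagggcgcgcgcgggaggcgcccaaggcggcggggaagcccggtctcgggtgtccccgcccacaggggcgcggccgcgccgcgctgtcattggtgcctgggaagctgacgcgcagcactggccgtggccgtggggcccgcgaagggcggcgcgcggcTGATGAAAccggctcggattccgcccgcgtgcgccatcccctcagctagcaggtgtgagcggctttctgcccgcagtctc

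Of the other motifs searched on both strands, the AP-1 site TGANTCA (7.33% of all windows) was in 4 of the 35 genes, of which 3 fell and 1 did not pass. The antioxidant response element TGACNNNGC (12.1% of all windows) was in 10 genes, of which 2 rose, 6 fell and 2 did not pass, and in Slc3a1 it overlaps the AP-1 site. The half-site TTCAGCACC of the neuronal repressor REST (0.356% of all windows) was in 0 of them.

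The 3 genes of Slc17 that carry organic anions without loading glutamate were mostly dim. Slc17a5 (sialin, g3036337), which takes sialic acid out of the lysosome, had log2 ratios of 0.20, 0.00, -0.03 and 0.08 in control and -0.32, -0.49, -0.44 and -0.29 in ligation. It fell 1.36-fold, with all ligation arrays below control (change -0.45 ± 0.07, SE, adjusted p = 0.000773), and its dimmer probe was at -0.33 (adjusted p = 0.0532). After quantile normalization it was -0.35 (adjusted p = 0.0931). Slc17a2 and Slc17a3, anion carriers known from the kidney, did not pass, with changes of -0.49 and -0.40 and mean control intensities of 0.0124 and 0.025.

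The calls of 13 of the 30 genes were lost when the log2 ratios were quantile normalized between arrays, which left 8 rises and 9 falls. Over all genes the same setting lowered the rises from 3243 to 1875 and the falls from 3860 to 1890, so the loss was not particular to these genes. The 13 genes were Slc17a5, Slc38a1, Slc38a2, Slc38a3, Slc38a9, Slc3a2, Slc6a12, Slc6a4, Slc6a5, Slc6a6, Slc6a7, Slc6a9 and Slc7a5. From the sample channel alone, without the pool, Slc38a2, Slc6a12, Slc6a5, Slc6a7, Slc6a9 and Slc7a5 did not pass either. Slc6a8, which had kept its call under quantile normalization, lost it in the sample channel alone. A loess correction within arrays ended the calls of Slc38a2 and Slc6a7. The 16 genes that kept direction and call in all alternatives run on them were the 8 rises Slc18a2, Slc7a6os, Slc1a5, Slc7a3, Slc38a6, Slc1a1, Slc7a6 and Slc38a10 and the 8 falls Slc36a1, Slc3a1, Slc17a6, Slc7a7, Slc18a1, Slc1a6, Slc7a1 and Slc6a20. The rounding ranges of Slc1a1 and Slc1a6 among them held 0. The fit of only probes above the median intensity did not include Slc18a2, Slc1a5, Slc7a3, Slc38a6, Slc1a1, Slc18a1, Slc1a6 and Slc6a20.

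The enzymes that make and break down the same transmitters are the first of 4 pathway lists set beside the carriers. Of 22 measured enzymes 3 rose and 11 fell, with a median change of -0.23. The share past the test, 63.6%, was near the 66.1% of all genes. Gch1, which makes the cofactor tetrahydrobiopterin for the synthesis of monoamines and nitric oxide, rose 5.78-fold (log2 change 2.53 ± 0.15, SE, adjusted p = 8.51e-06). Maoa, which breaks down monoamines, rose 2.01-fold (adjusted p = 3.58e-05), while Maob, the other monoamine oxidase, fell 1.49-fold (adjusted p = 0.00105). Hdc, which makes histamine, rose 1.71-fold (adjusted p = 4.05e-05). Th, the rate-limiting enzyme of catecholamine synthesis, fell 2.40-fold (adjusted p = 2.7e-05), and Ddc, which makes dopamine and serotonin from their precursors, passed at -0.20 (adjusted p = 0.0428) with a rounding range of -0.72 to 0.31. Beside the rise of Slc18a2, then, the histamine enzyme was higher and the catecholamine enzyme Th lower. The glutaminase Gls2 fell 2.47-fold (adjusted p = 3.27e-06), on the side of Slc17a6 and Slc38a1. Ache, which breaks down acetylcholine, fell 3.05-fold (adjusted p = 1.72e-05). Gad1 and Gad2, which make GABA, did not pass, with changes of 0.02 and -0.04. Both probes were dim, and rounding alone allowed -0.39 to 0.43 for Gad1 and -2.18 to 2.1 for Gad2.

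**Figure D4:**
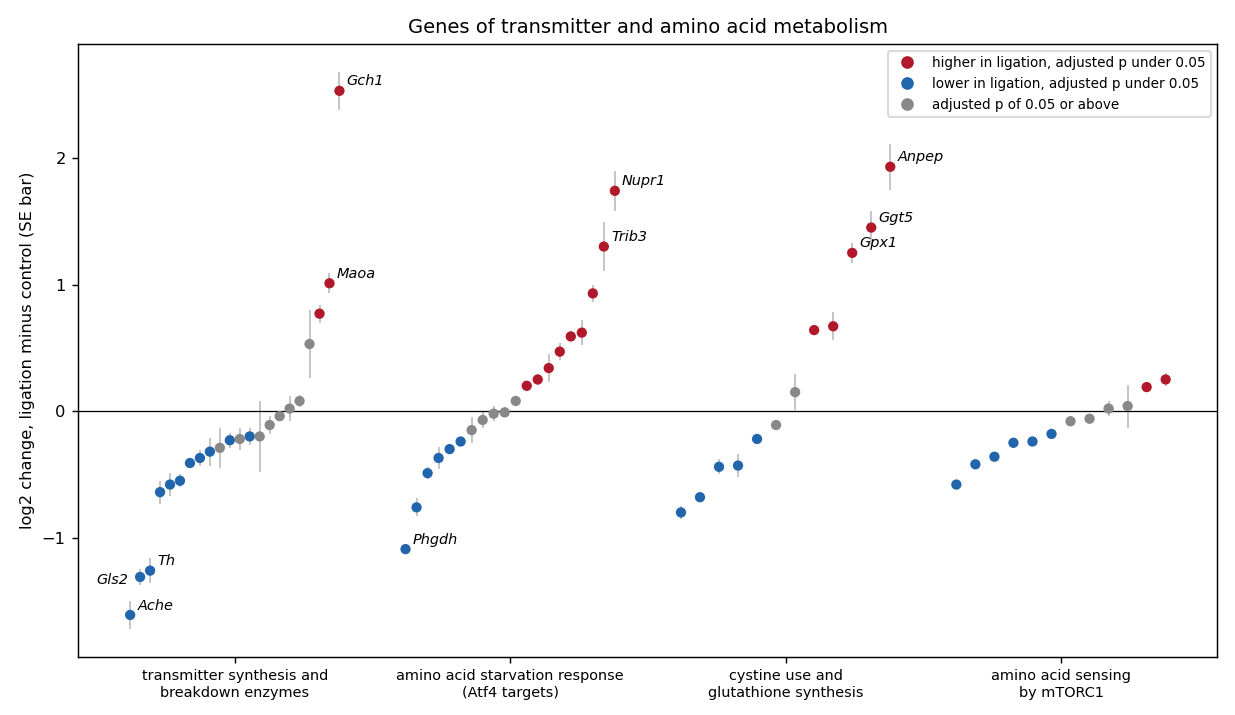
Change of each measured gene (log2, ligation minus control, with the standard error as a bar) in the 4 pathway lists, sorted within each list. Red points rose, blue points fell and grey points had an adjusted p of 0.05 or above. All 4 lists hold changes in both directions, from -1.61 in Ache to 2.53 in Gch1.

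Of 20 measured genes of the amino acid starvation response, the targets of ATF4, 9 rose and 6 fell, with a median change of 0.04. Here 75.0% passed the test, where 66.1% of all genes did. Nupr1, a stress-induced nuclear protein, rose 3.34-fold and Trib3, a pseudokinase of the same response, 2.47-fold, while Phgdh, the first enzyme of serine synthesis, fell 2.13-fold. Asns, asparagine synthetase and a standard readout of the response, did not pass (-0.15, adjusted p = 0.226). Among 12 genes of cystine use and glutathione synthesis 5 rose and 5 fell (83.3% past the test), with a median of 0.02. Anpep, a membrane peptidase, rose 3.80-fold, Ggt5, which cleaves glutathione outside the cell, 2.74-fold, and the glutathione peroxidase Gpx1 2.37-fold. The subunits of the enzyme that starts glutathione synthesis, Gclm and Gclc, fell 1.75-fold and 1.36-fold. Of 12 measured genes of amino acid sensing by mTORC1, 2 rose and 6 fell, with a median of -0.13. Their share past the test, 66.7%, was near that of all genes. Rptor, the scaffold of the complex, fell 1.49-fold and Rraga, a GTPase that brings it to the lysosome, 1.34-fold.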

How the data were processed

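Gene expression was measured on 8 two-colour arrays, 4 ligation and 4 control. Per the labels' protocols, the RNA input was 100 ng, with 2 rounds of amplification. Agilent Feature Extraction 8.5.1.1 is named in the submitters' processing notes. The deposited table gives, per the file headers, an intensity per channel on a relative linear scale, and the sources used here do not state the background correction or dye normalization. Intensities were printed with 2 decimals, or 3 digits below 0.01. A column of the authors' p-values and a deposited table of log10 ratios were not used. All columns were matched to samples by name, and 0 were left unmapped. No scaling was added to the log2 ratios, and spots of 1 probe were averaged. A probe was tested if each group had it on 2 or more arrays, which held for 22379 of 22491. The test was two-sided, by eBayes after lmFit in limma 3.58.1 (R 4.3.3), with Benjamini-Hochberg adjustment. The fit was tested on simulated data. The labels call the samples biological replicates, and their number limits the precision. Python 3.11.15 with pandas 2.3.3 handled the tables, and matplotlib 3.10.9 drew the figures. Summed levels of a marker list are sums over its genes of the log2 ratio turned back to a linear scale times the gene's geometric mean reference intensity.

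The genes and lists were chosen with earlier results of these data known. Values on each array are given for genes past the test with groups apart (the 12 largest rises and 12 largest falls) and for the genes of known role that the rule lists. From each list, genes past the test with a 2-fold change may be named, or else the 2 largest changes. The list genes named outside this (Calca, P2rx3, Maob, Hdc, Ddc, Gad1, Gad2, Asns, Gclm and Gclc) were chosen after their values were seen. Some genes of these families and lists are not reported here. The alternatives were quantile and loess normalization, the sample channel alone, 0.05 added to both intensities, a filter on dim probes, probes with all values, averaged probes, a trended robust variance, the replicate number as a block, and leaving out each array.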

Additional observations from a re-analysis of the deposited data

Results flagged for a closer look

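In 20 of the 86 groups of 4 arrays whose values were not all equal, the highest or lowest array stood apart from the other 3, with a gap above Dixon's critical share of the group's range. Chance alone flags about 1 in 20 such groups. The log2 ratios that stood apart in control were 0.03 in Slc1a2 (array 1), 0.58 in Slc17a3 (array 2), -0.09 in Slc38a6 (array 2), -0.19 in Slc38a3 (array 3), -0.32 in Slc6a18 (array 3), -0.13 in Slc18a1 (array 4), 0.14 in Slc38a9 (array 4) and 0.14 in Slc6a9 (array 4). Those in ligation were -0.42 in Slc38a4 (array 1), -1.0 in Slc7a2 (array 1), 0.00 in Slc17a2 (array 2), 0.17 in Slc17a7 (array 2), -0.42 in Slc1a6 (array 2), -0.17 in Slc6a13 (array 2), -0.26 in Slc6a5 (array 3), 0.37 in Slc7a6 (array 3), -0.65 in Slc7a7 (array 3), 0.07 in Slc7a9 (array 3), 0.00 in Slc6a12 (array 4) and -0.17 in Slc6a7 (array 4). In many of these groups the other 3 arrays had equal or nearly equal ratios, as intensities with 2 decimals give in dim probes. Among genes with a call, ligation array 3 was nearest to control in Slc7a6 and Slc7a7, and both calls held without that array. Slc6a12 lost its call when ligation array 1, 2 or 3 was left out and kept it without array 4.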

How the results depend on the processing

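Of the 30 genes past the test, 16 kept direction and call under all alternatives run on them, 14 of these with a rounding range that leaves out 0, and 11 of the 18 others stayed outside the test. The call of no gene turned its sign. Quantile normalization between arrays gave 8 rises and 9 falls among the 48 genes, and 1875 and 1890 over all genes. That setting gives all arrays the same spread of ratios, while control arrays as deposited had a standard deviation over probes of 0.18 to 0.22 and ligation arrays of 0.59 to 0.63. With only probes above the median intensity, 18 of the genes were fitted, 7 rose and 9 fell, with a median change of -0.22. The median was -0.05 with 0.05 added to both intensities and -0.09 with all probes of a gene averaged, and the cause was not tested. Leaving out each array in turn gave 12 to 13 rises, 16 to 18 falls, a median of -0.18 to -0.12, and 3061 to 3198 rises and 3594 to 3771 falls over all genes. The replicate block (the replicate number in the fit) gave 14 rises and 16 falls, and 3160 and 3711 over all genes. It added Slc38a7 (0.16, adjusted p = 0.0138) and lost Slc6a7 (-0.19, adjusted p = 0.076). Same-numbered arrays of the 2 groups correlated at 0.068 to 0.164 in their deviations, highest with their own number, which is a hint from the data and not from the design, since the labels do not say that numbers pair. Rounding limits what can be seen in dim probes.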
